A study of Mus musculus with 4 samples.

Results

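Feedback genes of receptor tyrosine kinase signalling, which ERK activity switches on, were examined in mouse forelimb cartilage as chondrocytes pass from division to hypertrophy. They are 10 genes chosen by name, of 34547 genes in the deposited tables: the Sprouty genes Spry1, Spry2 and Spry4, the Spred genes Spred1 and Spred2, the dual-specificity phosphatase genes Dusp4, Dusp5 and Dusp6, and the Ets transcription factor genes Etv4 and Etv5. Proliferating chondrocytes (PC) came from forelimbs at E14.5 (embryonic day) and hypertrophic chondrocytes (HC) from forelimbs at E15.5, both of C57BL/6 mice with no allele or treatment named. There were 2 libraries of each (PC replicates 1 and 2, HC replicates 3 and 4), made from RNA of cells cut out of cryosections with a laser. How the zones were recognised is not given in the labels. Age and cell state changed together and cannot be told apart. The labels do not say whether replicates came from separate animals, so p-values measure the spread between these libraries, which may be technical.

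Fibroblast growth factors (FGFs) bind FGF receptors and switch on the RAS, RAF, MEK and ERK relay of kinases. ERK then drives transcription of its own brakes: Sprouty and Spred proteins hold back the RAS and RAF steps, and Dusp phosphatases take the activating phosphates off ERK. Etv4 and Etv5 are transcription factors switched on by the same signal, and levels of these genes are often read as a gauge of it. In the growth plate, signalling through Fgfr3 slows the division of chondrocytes.

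Depth ran from 15246529 to 36644496 estimated counts, with the HC libraries the shallower. Mitochondrial transcripts took 8.86% and 13.22% of counts in the PC libraries against 20.23% and 14.17% in HC. Markers of the labelled cell states went with the labels: all 8 markers of proliferating chondrocytes were below PC in both HC libraries (4 fell), and all 9 hypertrophic markers were above (5 rose). The PC libraries were not alike in the hypertrophic list, which summed to 435.8 CPM in PC replicate 1 and 1880 in PC replicate 2. Col10a1 stood at 109.1 and 876.1 CPM there, while Pth1r went the other way (69.7 and 53.6). The part of this difference in the feedback gene values was not tested. Of 8 general chondrocyte markers, 6 lay below PC in both HC libraries and 1, Comp, above. Sox5 was the 1 that fell, and the median log2 fold change of the list was -1.17. Markers of other tissues moved too, as the plot of marker sums shows. Endothelial markers summed to 22.9 to 25.4 CPM (counts scaled to a common library size) in PC and to 131.9 to 247.1 CPM in HC, with Cldn5 at 0 in PC. The same sums were 14.6 to 20.01 and 99.6 to 203.7 CPM for macrophage and osteoclast, 1034 to 1509 and 4602 to 13430 for osteoblast and perichondrium, and 22.8 to 33.5 and 115.3 to 542.6 for muscle. They were 24.2 to 41.6 and 286.6 to 310.9 CPM for red blood cells and 8.86 to 10.3 and 91.7 to 177.2 for epidermis. Dsp, a desmosome gene, carried the epidermal sum, with 85.2 and 148.7 CPM in HC, and the keratin gene Krt10 overlapped between the groups. Both HC libraries lay above both PC libraries in 7 of 7 markers tested for endothelium and 8 of 8 for macrophage and osteoclast. The muscle list had 6 of 6 and red blood cells 6 of 7. Osteoblast and perichondrium had 5 of 8, and epidermis 3 of 5. Of all genes tested, 27.7% lay above in this way and 33.3% below. Twist2 (perichondrium), Myod1 (muscle), Hba-x (red blood cell) and Krt5 (epidermis) were at 0 in HC. Nerve and glia markers summed to 25.98 to 26.3 CPM in PC and 8.55 to 13.1 in HC, with Nefl at 0 in HC. Blood vessels and muscle are known to express several feedback genes, and the part of these cells in the results was not tested. Fewer cells of a type and less RNA per cell cannot be told apart in such samples.

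**Figure D1:**
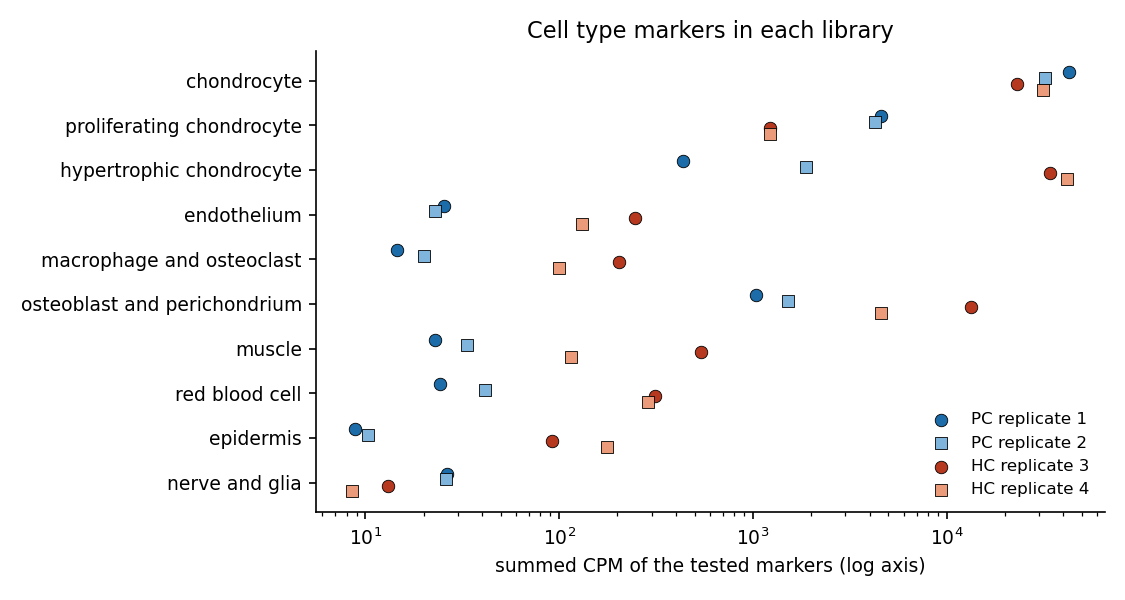
Summed CPM of the markers tested for each cell type, on a log axis, with 1 point for each of the 4 libraries. Hypertrophic markers sat at 436 and 1880 CPM in PC and at 34360 and 41730 in HC, and the endothelial, macrophage, osteoblast, muscle, red blood cell and epidermis sums were also higher in both HC libraries.

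Among the 10 genes, Dusp6 rose in HC and no other gene passed. A gene is said to have risen or fallen where the adjusted p of edgeR's quasi-likelihood test, over all 16607 genes tested, was under 0.05. That is 1 of 10 genes higher, against 2.75% of all genes, and 0 of 10 lower, against 1.96%. At an unadjusted p under 0.05 there were 5 higher (Spry1, Spry4, Dusp4, Dusp5 and Dusp6) and 1 lower (Etv5), and 27.0% of all genes reached that level in either direction. DESeq2 called those 5 genes higher (adjusted p = 5.22e-05 for Dusp6, 0.00163 for Dusp5, 0.00171 for Dusp4, 0.00443 for Spry4 and 0.0245 for Spry1) and 0 of 10 lower, against 9.51% and 8.34% of the genes to which it gave an adjusted p. The count of feedback genes and the count over all genes both depended on which libraries entered the edgeR test. With PC replicate 1 left out, 0 of 10 passed, where 2.08% of all genes were higher and 1.41% lower, and with PC replicate 2 left out, 0 of 10 passed, where 3.28% were higher and 2.98% lower. Leaving out HC replicate 3 gave 4 of 10 higher and 0 lower, against 13.1% and 15.2% of all genes. Leaving out HC replicate 4 gave 6 of 10 higher and 1 lower, against 18.3% and 20.7%. In CPM the groups did not overlap for 9 of 10 genes, against 61.0% of all genes: both HC libraries lay above both PC libraries in 8, against 27.7%, and below in 1 (Etv5), against 33.3%. In TPM, a measure that also divides by transcript length, 5 of 10 lay above (Spry1, Spry4, Dusp4, Dusp5 and Dusp6), against 16.6% of all genes, and 0 below, against 42.2%. The median log2 fold change was 1.62 over the 10 genes and -0.04 over all genes tested. All 10 genes passed the filter on low counts. Spry1, Spry4 and Dusp5 overlap small annotated genes on the opposite strand, which are not among the transcripts listed, and no strand setting for the counting is given here.

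**Figure D2:**
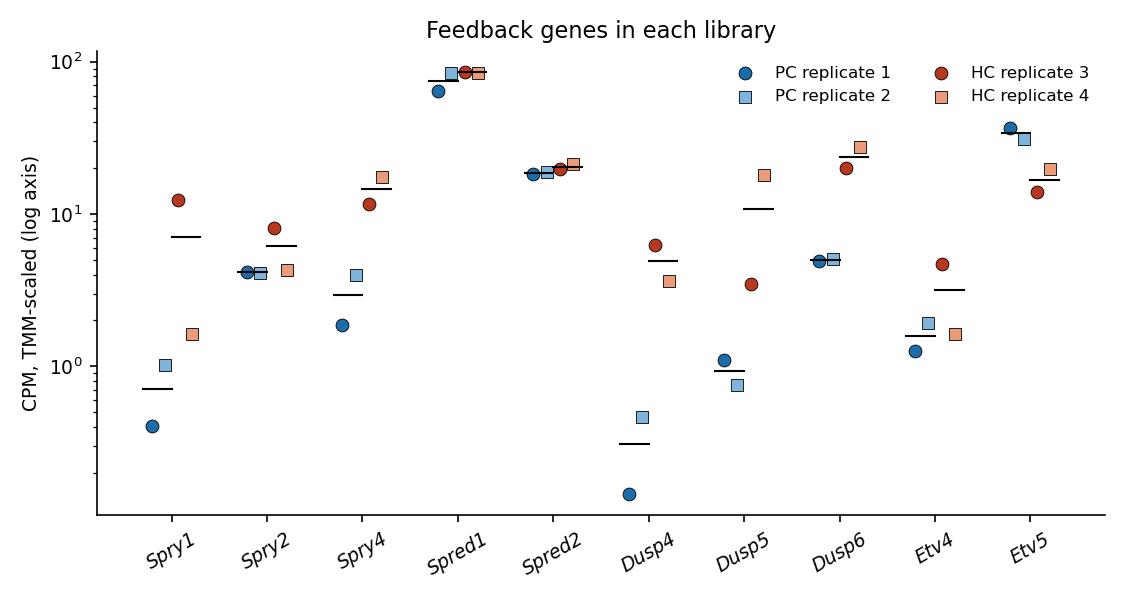
CPM of each gene in each of the 4 libraries, on a log axis, with a black line at each group's mean. Dusp6 sat at 4.88 and 5.09 CPM in the PC libraries and at 20.05 and 27.4 CPM in HC, while Spred1 and Spred2 were nearly level and Etv5 was lower in HC.

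Of the Sprouty genes, which encode membrane-bound inhibitors of the RAS step, none passed, and their HC libraries differed from each other in opposite ways. Spry1 (chromosome 3, 37639947 to 37644598, GRCm38) stood at 0.407 and 1.01 CPM in PC replicates 1 and 2, at 12.4 CPM in HC replicate 3 and at 1.62 CPM in HC replicate 4. HC replicate 3 was thus 7.66 times HC replicate 4, which was close to PC replicate 2. These levels rest on 14, 39, 153 and 36 counts. The log2 fold change (HC over PC, with its SE, 2 libraries per group here and below) was 3.29 ± 1.18, with an edgeR adjusted p of 0.146. Leaving out HC replicate 3 gave 1.15 (edgeR adjusted p = 0.281), and leaving out HC replicate 4 gave 4.07, which passed (0.00108). With PC replicate 1 or PC replicate 2 left out it was 2.75 and 4.06 (edgeR adjusted p = 0.535 and 0.171). Endothelial and muscle marker sums were 247.1 and 542.6 CPM in HC replicate 3 and 131.9 and 115.3 in HC replicate 4. Macrophage and osteoclast (203.7 and 99.6) and osteoblast and perichondrium (13430 and 4602) sums had the same order of HC replicates 3 and 4. So had the hypertrophic marker Ihh (3501 and 582.9 CPM). The whole hypertrophic sum (34360 and 41730) and the epidermal sum (91.7 and 177.2) went the other way. The part of these differences in the Spry1 values was not tested.

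For Spry4 (chromosome 18, 38586247 to 38601415) the PC libraries gave 1.86 and 3.998 CPM, and the HC libraries 11.6 and 17.6. The groups did not overlap, and PC replicate 2 was 2.15 times PC replicate 1. Its difference of 2.32 ± 0.58 on the log2 scale missed the threshold over all libraries (edgeR adjusted p = 0.0795). It passed with HC replicate 3 left out (2.55, edgeR adjusted p = 0.00333) and with HC replicate 4 left out (1.94, 0.0139), but not with PC replicate 1 (1.83, 0.492) or PC replicate 2 (2.94, 0.086) left out. Spry2 (chromosome 14, 105891947 to 105896819) was measured at 4.18 and 4.13 CPM in PC, then 8.04 and 4.28 in HC. HC replicate 4 was therefore at the PC level, and the log2 difference was 0.56 ± 0.60 (edgeR adjusted p = 0.602). In TPM the PC libraries of Spry2 gave 3.27 and 2.80 and the HC libraries 3.28 and 2.73, with overlapping groups and the sign turned (-0.01 with limma-trend on log2(TPM + 1)).

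The Spred genes encode relatives of Sprouty that bind neurofibromin and bring it to RAS. In CPM they were close to level between the groups. Spred1 (chromosome 2, 117121374 to 117182279) gave 64.6 and 84.0 CPM in the PC libraries, 85.8 and 84.9 in the HC libraries, and a log2 difference of 0.20 ± 0.29 (edgeR adjusted p = 0.712). PC replicate 1 stood below the other libraries. Spred2 (chromosome 11, 19924375 to 20024026) gave 18.4 and 18.9 CPM, then 19.7 and 21.2, and a log2 difference of 0.13 ± 0.32 (edgeR adjusted p = 0.83). Both directions depended on the scaling: they were kept with RLE size factors, DESeq2 and the length offset and turned on other scales. Spred1 was at -0.06 and Spred2 at -0.12 when scaled to library size alone, and at -0.29 and -0.34 with limma-trend on log2(TPM + 1). In CPM Spred1 was the most abundant of the 10 genes in each of the 4 libraries.

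The Dusp genes encode phosphatases that inactivate MAP kinases. Dusp6 acts on ERK in the cytoplasm, and Dusp4 and Dusp5 act in the nucleus, where Dusp5 is specific for ERK. All 3 had both HC libraries above both PC libraries. Dusp6 (chromosome 10, 99263231 to 99267489) was at 4.88 and 5.09 CPM in PC and rose to 20.05 and 27.4 CPM in HC. Within groups the libraries were close, with PC replicate 2 at 1.04 times PC replicate 1 and HC replicate 4 at 1.37 times HC replicate 3. The rise was 4.76-fold, or 2.25 ± 0.40 on the log2 scale (edgeR adjusted p = 0.0425). Without single libraries it stayed between 1.96 and 2.42, and the call was lost when PC replicate 1 (edgeR adjusted p = 0.152) or PC replicate 2 (0.103) was left out. Summing protein-coding transcripts alone, an alternative chosen after seeing the data, gave 2.71 and no call (edgeR adjusted p = 0.0749). The call was also absent with scaling to library size alone, with a length offset and with limma-trend on TPM, and the adjusted p over all 15 alternatives ran from 5.22e-05 to 0.273.

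Dusp4 (chromosome 8, 34807297 to 34819894) had the lowest mean TPM of the 10 in both groups. It had 0.145 and 0.467 CPM in the PC libraries, from 5 and 18 counts, while the HC libraries gave 6.25 and 3.65 CPM, from 77 and 81 counts. Its log2 difference of 3.99 ± 1.01 was the largest of the 10 and missed the threshold (edgeR adjusted p = 0.0796). With HC replicate 3 or HC replicate 4 left out it passed (3.51 and 4.27, edgeR adjusted p = 0.00662 and 0.00202). With PC replicate 1 or PC replicate 2 left out it did not (3.35 and 5.01, edgeR adjusted p = 0.621 and 0.224). For Dusp5 (chromosome 19, 53529109 to 53542431) the PC libraries gave 1.10 and 0.753 CPM, HC replicate 3 gave 3.49 and HC replicate 4 gave 18.1, from 38, 29, 43 and 401 counts. Here HC replicate 4 was 5.17 times HC replicate 3, the opposite order to Spry1. Of the other-tissue sums that were higher in HC, the epidermal one, carried by Dsp, was also higher in HC replicate 4 (177.2 CPM against 91.7), and its part in the Dusp5 values was not tested. The log2 difference was 3.54 ± 0.93 (edgeR adjusted p = 0.0851). It was 4.25 with HC replicate 3 left out and 1.86 with HC replicate 4 left out, and passed in both cases (edgeR adjusted p = 0.000268 and 0.0364), but not with PC replicate 1 (0.0705) or PC replicate 2 (0.118) left out.

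**Figure D3:**
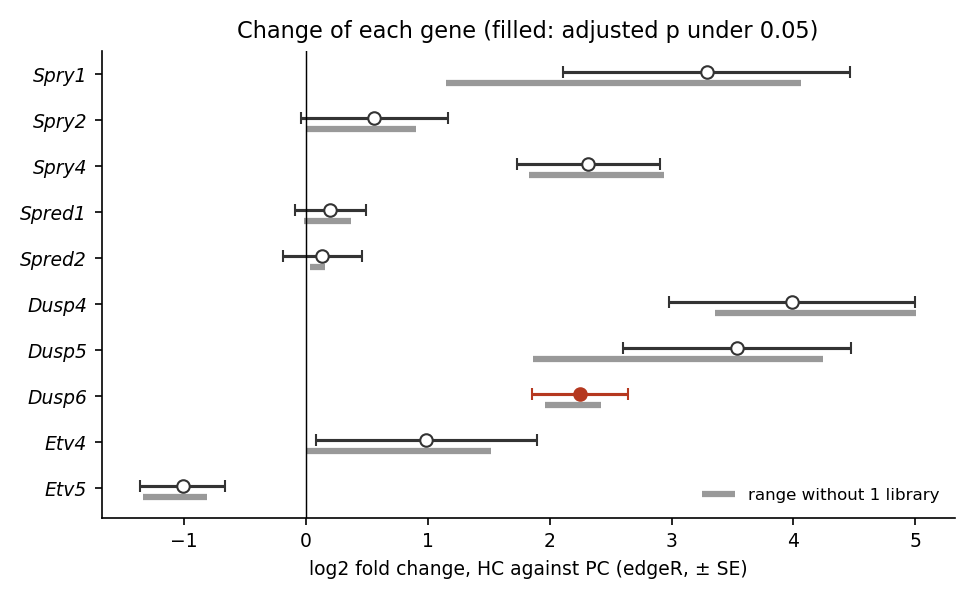
Log2 fold change of HC against PC with its standard error for each gene, with a grey bar for the range of the estimate when single libraries were left out and filled points for genes that passed. Dusp6 at 2.25 is the filled point, and the bars of Spry1 (1.15 to 4.07) and Dusp5 (1.86 to 4.25) are wide.

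The promoter windows of Dusp6, the gene that rose, and of Dusp5, which holds the motifs named here, are shown from RefSeq (GRCm38.p6). Windows covered the 250 bases before the RefSeq start site. They were searched whole, and are printed only up to the start of the GENCODE gene model, so 250 and 214 bases are shown. Windows were searched for 7 of the 10 genes, and none was searched for Spry4, Dusp4 and Etv4. Both printed windows are on the plus strand, chr10:99262981-99263230 and chr19:53528895-53529108, and capitals mark the matches to a CArG box or a CRE half-site.
Dusp6 promoter: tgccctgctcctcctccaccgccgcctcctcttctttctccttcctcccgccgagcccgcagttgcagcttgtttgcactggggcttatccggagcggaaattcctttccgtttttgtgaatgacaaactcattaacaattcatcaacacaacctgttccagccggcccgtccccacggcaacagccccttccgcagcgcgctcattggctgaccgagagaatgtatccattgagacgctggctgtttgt
Dusp5 promoter: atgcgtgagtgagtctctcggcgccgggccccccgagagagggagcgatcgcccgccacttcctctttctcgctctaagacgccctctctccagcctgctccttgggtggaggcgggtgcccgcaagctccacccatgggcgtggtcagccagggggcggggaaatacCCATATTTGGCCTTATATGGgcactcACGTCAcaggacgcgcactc
On both strands the windows were searched for the ETS motif CCGGAA, the CRE half-site TGACGT, the AP-1 motif TGANTCA, the SRF CArG box, the GC box GGGCGG and the TATA box TATAAA, and no 2 matches overlapped. In Dusp5 there were 2 CArG boxes side by side, CCATATTTGG and CCTTATATGG, at -82 to -73 and -72 to -63 from the RefSeq start, and the CRE half-site, read on the other strand as ACGTCA, at -56 to -51. A CArG box was found in 1.47% and the CRE half-site in 6.47% of 32851 windows of that length. The whole Spred2 window also held an ACGTCA, at -52 to -47, which lies inside the GENCODE gene model. GC boxes, present in 32.7% of windows, were in the whole windows of Spry1, Spred1, Spred2, Dusp5 and Etv5 (RefSeq start 22439570). A further Etv5 window, before the RefSeq start at 22438368, held no match. The GC box of Spred2 and those of Etv5 at -99 to -94 and -55 to -50 also lie inside the gene models. The ETS, AP-1 and TATA motifs, found in 12%, 6.75% and 12.4% of windows, were not among the letters of any window searched for the feedback genes. A match is a run of letters only, and no binding was measured here.

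Etv4 and Etv5 encode Ets factors of the Pea3 group, which carry FGF signals to their target genes, and neither passed. Etv5 (chromosome 16, 22381309 to 22439719) was at 36.8 and 31.3 CPM in PC and lower in HC, at 13.9 and 19.8 CPM. It was the single gene of the 10 with both HC libraries below both PC libraries in CPM. The log2 difference of -1.01 ± 0.35 missed the threshold (edgeR adjusted p = 0.133) and passed with HC replicate 4 left out (-1.34, edgeR adjusted p = 0.0165). An offset for effective transcript length brought it to -0.16 (edgeR adjusted p = 0.901). In TPM the groups overlapped, with 25.3 and 12.3 for PC against 5.23 and 21.9 for HC. Etv4 (chromosome 11, 101769742 to 101785371) was at 1.25 and 1.92 CPM in PC, at 4.71 in HC replicate 3 and at 1.62 in HC replicate 4. The groups overlapped, and the log2 difference was 0.99 ± 0.91 (edgeR adjusted p = 0.539). It was -0.002 with HC replicate 3 left out and 1.52 with HC replicate 4 left out, where it passed (edgeR adjusted p = 0.0471).

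The counts of Dusp6, Etv4 and Etv5 were spread over transcripts in a way that differed between libraries. Protein-coding transcripts held 82% and 37.5% of Dusp6 counts in PC and 72% and 82% in HC, and Dusp6-203, a short non-coding model, held the rest. Between the coding forms, Dusp6-201 had 122.4 and 66.5 estimated counts in PC and 0 and 498.4 in HC, while Dusp6-204, which lacks the second exon, had 15.3 and 6.95 in PC and 177.8 and 0 in HC. The HC libraries were thus opposite. Few words tell these forms apart: of the 31-base words of Dusp6-201, 28 of 2766 are in no other Dusp6 transcript, and of Dusp6-204, 29 of 2329. The exon junctions that set these forms apart are shown, both in coding sequence (GENCODE M21, GRCm38), with the 30 bases before the junction in lower case and the 30 after it in capitals.
Dusp6-201, exon 1 to exon 2: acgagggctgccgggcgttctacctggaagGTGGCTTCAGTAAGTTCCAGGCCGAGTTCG
Dusp6-204, exon 1 to the last exon: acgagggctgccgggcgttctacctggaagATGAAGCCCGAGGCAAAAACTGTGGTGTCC
The left side is the same, chr10:99264062-99264091 on the plus strand. The right side is chr10:99264544-99264573 in Dusp6-201 and chr10:99265992-99266021 in Dusp6-204. The error of assigning reads to single transcripts is not listed in the tables, and the gene sum is the value tested above.

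Coding transcripts of Etv4 had 23.6 and 1.8 estimated counts in PC and 0 and 0 in HC. The other counts were given to short processed transcripts, mainly Etv4-209 in PC and HC replicate 4 and Etv4-206 in HC replicate 3. Each of these has 27 words of its own. For Etv5, coding transcripts held 87.1% to 99.4% of counts, but their make-up differed between groups. Etv5-201 had 1177.5 and 817.7 counts in PC and 0 and 0.16 in HC. Etv5-203 had 41.9 and 375.1 in PC and 159.5 and 383.1 in HC. Etv5-201 starts at 22439719, and Etv5-203 starts at 22436514, inside the second exon of Etv5-201, and holds an extra exon at 22421819 to 22421872. Their own words number 110 of 3945 and 84 of 3743. This difference was noticed in the values and was not tested.

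**Figure D4:**
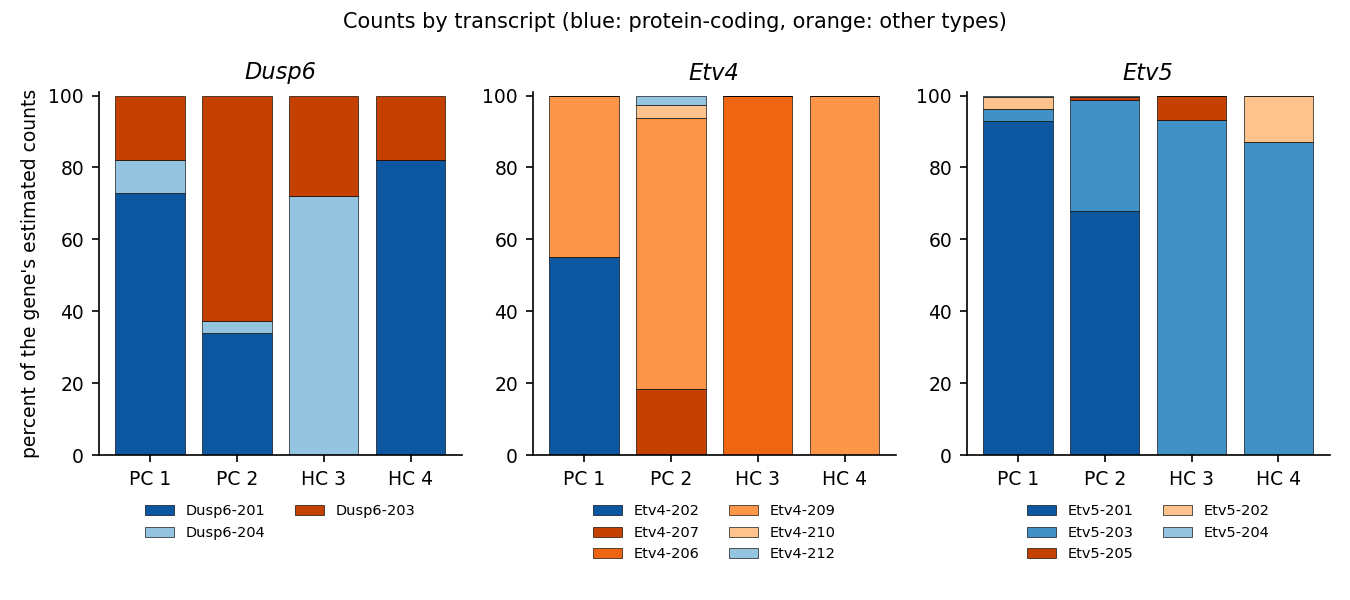
Share of each gene's estimated counts given to each transcript in the 4 libraries, for Dusp6, Etv4 and Etv5, with protein-coding transcripts in blue and other types in orange. Etv5-201 holds 93% and 67.8% in PC and 0% in HC, and the coding share of Etv4 is 55% and 2.4% in PC and 0% in HC.

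Levels per transcript length were compared in TPM. In PC the means ran from Etv5 (18.8 TPM) and Spred1 (18.8) through Spred2 (6.78), Dusp6 (5.46), Etv4 (3.72), Spry2 (3.04), Spry4 (0.905), Dusp5 (0.571) and Spry1 (0.422) to Dusp4 (0.161). Neighbours in that order overlapped, except at the steps from Spred1 to Spred2, from Spry2 to Spry4 and from Spry1 to Dusp4. In HC the means ran from Spred1 (15.6 TPM), Dusp6 (14.9) and Etv5 (13.6) through Etv4 (5.62), Dusp5 (5.38), Spred2 (5.36), Spry4 (3.48), Spry2 (3.003) and Spry1 (2.56) to Dusp4 (1.82). All neighbours in HC overlapped. Dusp6 had 4.20 and 6.73 TPM in PC and 11.1 and 18.8 TPM in HC, of which coding transcripts made 2.33 and 0.962 in PC and 5.14 and 10.5 in HC. For Etv4 the coding part was 0.466 and 0.028 TPM in PC and 0 in HC.

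Genes with the most similar course over the 4 libraries were found by the distance between log2 CPM profiles, each centred on its own mean, among about 6785 protein-coding genes with a mean of at least 10 TPM. For Dusp6 it was Skil, a repressor of SMAD signalling, with 26.1, 27.0, 100.6 and 139.9 CPM in PC replicates 1 and 2 and HC replicates 3 and 4 (distance 0.0637). For Spry4 it was Plin2, a coat protein of lipid droplets (0.099), and for Etv5 the glycolytic aldolase Aldoa (0.0124). With 4 libraries such likeness is a description only.

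None of the closest relatives Spry3, Spred3 and Etv1 passed over all libraries (0 of 3 with edgeR, with DESeq2 and at an unadjusted p under 0.05), though 2 were lower without HC replicate 3 and 1 without HC replicate 4. For this and the lists that follow, the shares of all genes called with DESeq2 and with each library left out are those given above. With edgeR over all libraries they were 2.75% higher and 1.96% lower, and 27.0% had an unadjusted p under 0.05. Other MAP kinase phosphatases had 2 of 9 higher and 0 lower with edgeR (4 and 0 at an unadjusted p under 0.05 and with DESeq2), with a median log2 fold change of 1.54. The 2 were Ptprr, a receptor-type phosphatase that binds ERK, which rose from 3.34 and 12.2 CPM to 332.6 and 104.8 CPM (4.81 ± 0.88, edgeR adjusted p = 0.046), and its relative Ptpn5 (4.53 ± 0.86, 0.0479). Ptprr was at -0.48 in coding transcripts alone (edgeR adjusted p = 0.885). Ptpn5 missed the threshold when PC replicate 1 or PC replicate 2 was left out (edgeR adjusted p = 0.222 and 0.0675). The 2 higher became 6 without HC replicate 3, and 4 with 1 lower without HC replicate 4. Of 17 other negative regulators of the pathway, 1 fell and 0 rose with edgeR (3 and 2 at an unadjusted p under 0.05 and with DESeq2, 4 and 2 without HC replicate 3 or HC replicate 4, 2 and 0 without PC replicate 2), and the median was 0.11. The gene that fell was Lrig3, a membrane protein with leucine-rich repeats, at 104.7 and 90.1 CPM in the PC libraries, then 13.7 and 10.3 (-3.02 ± 0.33, edgeR adjusted p = 0.0359).

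The FGF receptors upstream, which bind the ligands, changed in opposite directions. Fgfr1 rose from 89.5 and 89.8 to 465.6 and 770.1 CPM (2.79 ± 0.38 on the log2 scale, edgeR adjusted p = 0.0359). Fgfr4 fell to 1.46 and 0.495 CPM, where the PC libraries gave 33.2 and 24.0 (-4.93 ± 0.65, edgeR adjusted p = 0.0359). Fgfr2 fell to 63.1 and 51.1 CPM, where the PC libraries gave 197.5 and 202.8 (-1.81 ± 0.30, edgeR adjusted p = 0.0392). Fgfr3, a marker in the proliferating list too, went from 590.2 and 340.4 to 124.5 and 164.8 CPM without passing (-1.685 ± 0.394, edgeR adjusted p = 0.0698). It passed with DESeq2 (adjusted p = 0.000453). With no filter on low counts or with at least 5 CPM in 2 libraries it also passed (edgeR adjusted p = 0.015 and 0.0431). It did not with library size alone or a length offset (edgeR adjusted p = 0.0811 and 0.0827). Of 18 genes of FGF receptors, co-receptors and ligands tested, 3 were higher and 7 lower at an unadjusted p under 0.05. DESeq2 gave 2 and 6. With edgeR over all libraries 1 rose and 2 fell, and the median was -0.63. Leaving out HC replicate 3 made these 5 and 7, and leaving out HC replicate 4 made them 4 and 5. With PC replicate 1 left out they were 2 and 2, with PC replicate 2 left out 2 and 3. Of 30 genes of the RAS-ERK cascade, 2 rose and 0 fell with edgeR (8 and 3 at an unadjusted p under 0.05, 6 and 2 with DESeq2), with a median of 0.38. With HC replicate 3 left out it was 6 and 1, with HC replicate 4 left out 8 and 5, and with PC replicate 2 left out 3 and 0. The 2 were the docking proteins Gab2 (3.28 ± 0.44, edgeR adjusted p = 0.0359) and Gab1 (1.90 ± 0.30, 0.0375), which link receptors to the phosphatase Ptpn11. Gab1 missed the threshold when PC replicate 1 was left out (edgeR adjusted p = 0.133).

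Downstream, of 24 immediate early genes 5 rose and 1 fell, against 2.75% and 1.96% of all genes, with a median of 0.92. At an unadjusted p under 0.05, 10 were higher and 2 lower, and DESeq2 gave 9 and 1. Immediate early genes mostly encode transcription factors made within minutes of a signal. Egr2 rose from 0.407 and 0.831 CPM to 19 and 14.1 CPM (4.72 ± 0.62), Egr3 from 0.581 and 1.14 to 21.4 and 19.3 CPM (4.55 ± 0.56), and Atf3 rose by 4.63 ± 0.55 on the log2 scale (edgeR adjusted p = 0.0359 for each). Egr1 (4.05) and Klf6 (1.82), named after their values were seen, also rose, the latter not without PC replicate 1 (edgeR adjusted p = 0.223). Myc, which drives growth, fell (-2.25 ± 0.44, edgeR adjusted p = 0.0496), a call lost without PC replicate 1 (0.0684). Of 18 other genes known to respond to ERK, 3 rose and 2 fell, with a median of 0.22. At an unadjusted p under 0.05, 5 were higher and 4 lower, and DESeq2 gave 5 and 3. Those that rose were the Eph receptor Epha2 (2.81 ± 0.38), the transcription factor Ets1 (2.72 ± 0.36) and the death-promoting Bcl2l11 (2.64 ± 0.43), whose protein active ERK is known to hold down. Those that fell were the cyclin Ccnd1 (-1.71 ± 0.28) and the chromatin protein Hmga2 (-1.94 ± 0.29), and Ccnd1 missed the threshold when PC replicate 1 was left out (edgeR adjusted p = 0.0925). Of 16 kinases and activators of the parallel p38 and JNK pathways, 0 passed with edgeR or DESeq2 and 1 was higher at an unadjusted p under 0.05, with a median of 0.01. Without HC replicate 3 it was 1 higher and 2 lower, and without HC replicate 4 it was 2 lower.

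**Figure D5:**
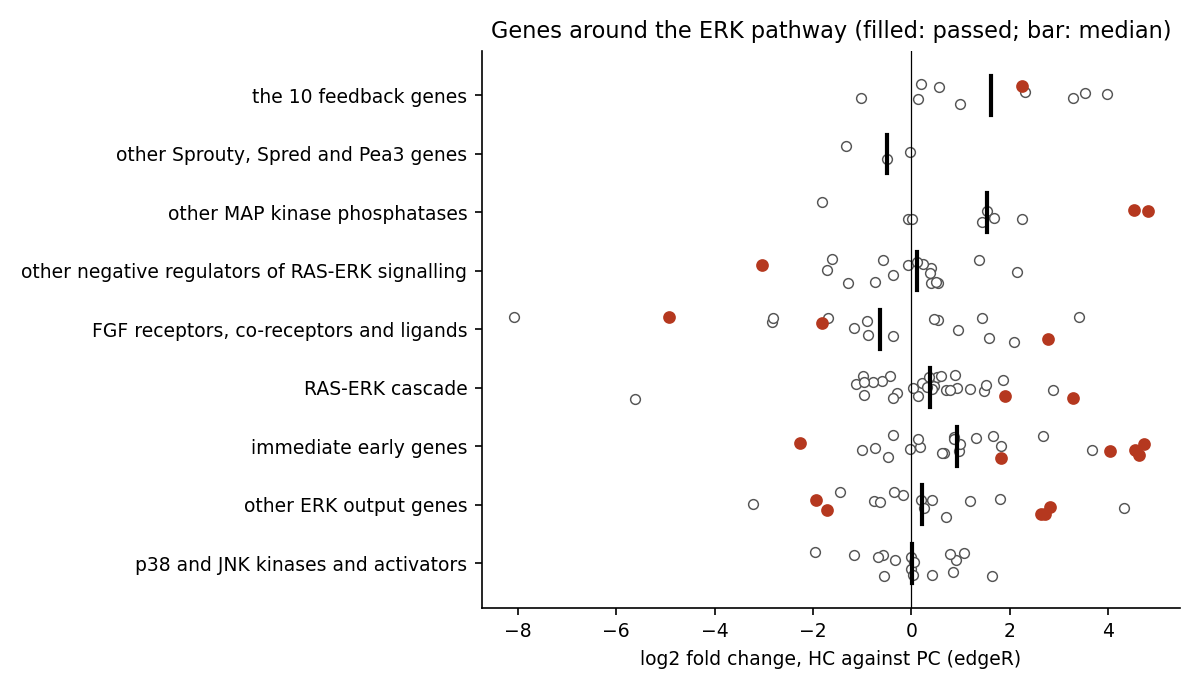
Log2 fold change of HC against PC for each gene tested in the 10 feedback genes and 8 lists around the pathway, with filled points for genes that passed and a bar at each median. The medians run from -0.63 (FGF receptors and ligands) to 1.62 (feedback genes), and the point near -8 is Fgf18, which had 31 and 62 counts in PC and 0 in HC, so its fitted value depends on the prior count.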

How the data were processed

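RNA was sequenced in 4 libraries, from 10 ng of RNA each per the labels' protocols. The submitters' processing notes list Trimmomatic 0.36 (trims reads), kallisto 0.43.1 (shares reads out over transcripts) and build mm10. The deposited estimated counts are reads assigned to transcripts by likelihood, and the deposited TPM values are scaled to effective length and a fixed total, per the file headers, which also list lengths. No strand setting is given in the sources used here.

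Of 109282 transcripts, 107987 matched GENCODE M21 (GRCm38) by identifier without version. The deposited transcript lengths are not all those of that release. Estimated counts were added up over each gene's transcripts, then rounded. Genes kept by filterByExpr were scaled by TMM (factors 1.14 and 1.058 in PC, 0.812 and 1.021 in HC) and tested with edgeR 4.0.16 (glmQLFTest, two-sided, Benjamini-Hochberg adjustment over all genes), on 2 residual degrees of freedom. SEs were derived from the coefficient and its F statistic. Functions were tested on simulated data. DESeq2 1.42.0, limma 3.58.1 (limma-trend), R 4.3.3 and Python 3.11.15 were also used. In addition to 14 alternatives planned, summing protein-coding transcripts alone was added after seeing the data. Named from each pathway list were up to 3 genes that passed in each direction, by lowest adjusted p, plus the 4 FGF receptors. The genes and lists were chosen with earlier results of these data known.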

Additional observations from a re-analysis of the deposited data

How the results depend on the processing

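No paired analysis was possible because the groups share no replicate numbers. Of the 10 feedback genes, 1 was higher over all libraries, and 5 with DESeq2, 4 with no filter on low counts, 2 with at least 5 CPM in 2 libraries (5 of the genes tested), and 0 with library size alone, an effective length offset, limma-trend on log2(TPM + 1), log2(TPM + 0.1) or log2(TPM + 1) with no filter, or coding transcripts alone. Without single libraries 0 to 6 were higher and 0 to 1 lower, where the lone library of a group is assumed to vary like the other group. Over all genes, 457 were higher and 325 lower of 16607 tested. With DESeq2 it was 1644 and 1442 of 17287 genes with an adjusted p. With no filter it was 963 and 965 of 24150, and with the 5 CPM filter 899 and 557 of 10936. The length offset gave 251 and 155 of 16607. None was called with library size alone, the 3 limma-trend fits or coding transcripts alone (4394, 4260, 3993, 4537 and 3761 at an unadjusted p under 0.05). Leaving out single libraries gave 379 to 3331 higher and 257 to 3775 lower. Dusp6 kept its direction in 15 of 15 alternatives (1.29 to 2.71) and lost its call in 8; Spry1, Spry4, Dusp4, Dusp5 and Etv5 also kept theirs. Spred1 turned to -0.056 and Spred2 to -0.12 with library size alone. With limma-trend on log2(TPM + 1), with or without a filter, Spry2, Spred1 and Spred2 were at -0.013, -0.29 and -0.34, and on log2(TPM + 0.1) at -0.017, -0.31 and -0.40. Without single libraries Spred1 ran from -0.014 (PC replicate 1 left out) to 0.37 and Etv4 from -0.002 (HC replicate 3 left out) to 1.52, and Ptprr was at -0.48 with coding transcripts alone. The causes were not tested. Library size alone shifted the median of all genes from -0.04 to -0.29, and limma-trend on log2(TPM + 1) to -0.39, on log2(TPM + 0.1) to -0.59. DESeq2, fitted to genes without the low-count filter, had a median of -0.2, where edgeR with no filter had -0.25. Of 299 values of 20 other named genes under the alternatives, 183 kept direction and side of the threshold, 109 lost the call, 6 gained it and 1 reversed. Dusp4 in PC, Spry1 and Dusp5 in 3 libraries each, and Etv4 rest on 5 to 74 counts per library.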
